A study of Bos taurus with 14 samples.

Results

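Among the bovine miRNAs counted in peripheral white blood cells (PWBC) are 7 whose sequences are held to overlap those of other small structured RNAs, either tRNA or the small nucleolar and small Cajal body RNAs (snoRNA and scaRNA). The tRNA-like members are bta-miR-2478 and bta-miR-1260b, and the sno/scaRNA-like members are bta-miR-1839, bta-miR-664a, bta-miR-664b, bta-miR-1248 and bta-miR-1291. They were chosen by mature name, for this overlap, from the 1030 mature names of the count table, with earlier results of these data known. The origin given for each is background knowledge, and the overlap itself was not checked by sequence here. All 7 were in the table, and 6 of them were among the 341 miRNAs that passed the filter on low values (a CPM, the count scaled to a common library size, of at least 1 in at least 7 of 14 heifers) and were tested.

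Canonical miRNAs are cut from hairpin transcripts by Drosha and then Dicer. Mature tRNAs are also cleaved in cells, in particular under stress, and the resulting tRNA fragments can be loaded on Argonaute proteins like a miRNA. H/ACA snoRNAs guide the pseudouridylation of ribosomal RNA, and scaRNAs guide the modification of spliceosomal RNAs in Cajal bodies. Both fold into hairpins from which Dicer can release miRNA-like fragments. Reads were assigned by sequence, so a fragment of a tRNA or snoRNA and the product of a miRNA precursor with the same sequence could not be told apart.

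Small RNA was sequenced from the PWBC of 14 Angus-Simmental crossbred heifers, with blood taken at weaning, before any of them was bred. The fertile group (FH, 7 heifers) later became pregnant to artificial insemination (AI), and the subfertile group (SFH, 7 heifers) did not become pregnant. Heifers of both groups were exposed to bulls after AI, and the groups were picked to have like ages and body weights. Each library came from a different heifer. The comparison asks whether miRNA levels at weaning differ by later pregnancy outcome. The heifers are named by the numbers in their labels, 20, 22, 24, 25, 27, 29 and 31 in FH and 17, 21, 23, 26, 28, 30 and 32 in SFH. PWBC are a mixture of leukocytes, so fewer cells of a type that carries an RNA and less of that RNA per cell cannot be told apart.

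Total counts on mature miRNAs ranged from 1754971 to 5468341 in FH (median 3319368) and from 1831960 to 3958469 in SFH (median 2663375). A count of 0 therefore allowed a level of up to 0.549 CPM in the deepest and 1.71 CPM in the shallowest library (3 counts of the total). Levels below are CPM on library sizes scaled by the trimmed mean of M-values (TMM), with factors from 0.817 in FH heifer 29 to 1.08 in SFH heifer 32. Correlations between pairs of libraries ranged from 0.866 to 0.943, taken over miRNAs (these are not replicates), and 0 pairs held identical counts. Counting error at the mean count was 1.09% for bta-miR-2478, the most abundant member, and 15.8% for bta-miR-1291, the rarest member tested. These limits cover counting error only, since reads amplified by PCR are not independent molecules.

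The members differed widely in level. Over the 14 heifers, the mean level was 2680 CPM for bta-miR-2478, 1319 CPM for bta-miR-1260b, 376 CPM for bta-miR-1839, 38.6 CPM for bta-miR-664b, 21.4 CPM for bta-miR-1248 and 14.0 CPM for bta-miR-1291. By mean level these ranked 53, 64, 106, 191, 225 and 245 of the 341 miRNAs tested. The order held in nearly every animal at the top of the range, where bta-miR-2478 was above bta-miR-1260b in 13 of 14 heifers (not in SFH heifer 30), and bta-miR-1260b was above bta-miR-1839, and bta-miR-1839 above bta-miR-664b, in 14 of 14. Lower down, bta-miR-664b was above bta-miR-1248 in 11 of 14 heifers and bta-miR-1248 was above bta-miR-1291 in 7 of 14, so the last pair did not differ beyond its spread. These are read levels of mature sequences, with no scaling for length. The 7 members together took 0.521% ± 0.0692 of all counts in FH and 0.363% ± 0.0666 in SFH (mean ± SD, n = 7 each).

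Between the groups, both tRNA-like members were lower in SFH and bta-miR-1839 was higher. A miRNA was called when its unadjusted edgeR *p*-value was no higher than 0.05 and its absolute log2 fold change no lower than 0.5, and 3 of the 6 tested members met this, against 13 of 341 miRNAs (3.81%). Of the members called, 2 were lower in SFH, against 8 of 341 (2.35%), and 1 was higher, against 5 of 341 (1.47%). After Benjamini-Hochberg adjustment over all 341 miRNAs, edgeR called 0 members and 0 miRNAs (0.0%) at the 0.05 level, where the smallest adjusted value was 0.142, while the unadjusted value was no higher than 0.05 for 20 miRNAs. With the same adjustment limma-voom called 0 miRNAs and DESeq2 called 2, bta-miR-92b and bta-miR-2478. The count of 13 called miRNAs was 22 without FH heifer 24 and 20 without SFH heifer 26. In exact two-sided permutation tests over the 3432 arrangements of the heifers, 3 of 6 members reached 0.05 without adjustment, against 21 of 341 miRNAs (6.16%). Adjusted over all 341 miRNAs, these permutation *p*-values were 0.255 for bta-miR-2478, 0.255 for bta-miR-1839 and 0.504 for bta-miR-1260b. The median log2 fold change in SFH relative to FH was 0.20 over the 6 members and 0.06 over all 341 miRNAs. The authors had already reported bta-miR-2478, bta-miR-1260b and bta-miR-1839 as differentially expressed in these heifers. Since the members were chosen with such results known, the shares of members called are a description and no test of the set.

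**Figure D1:**
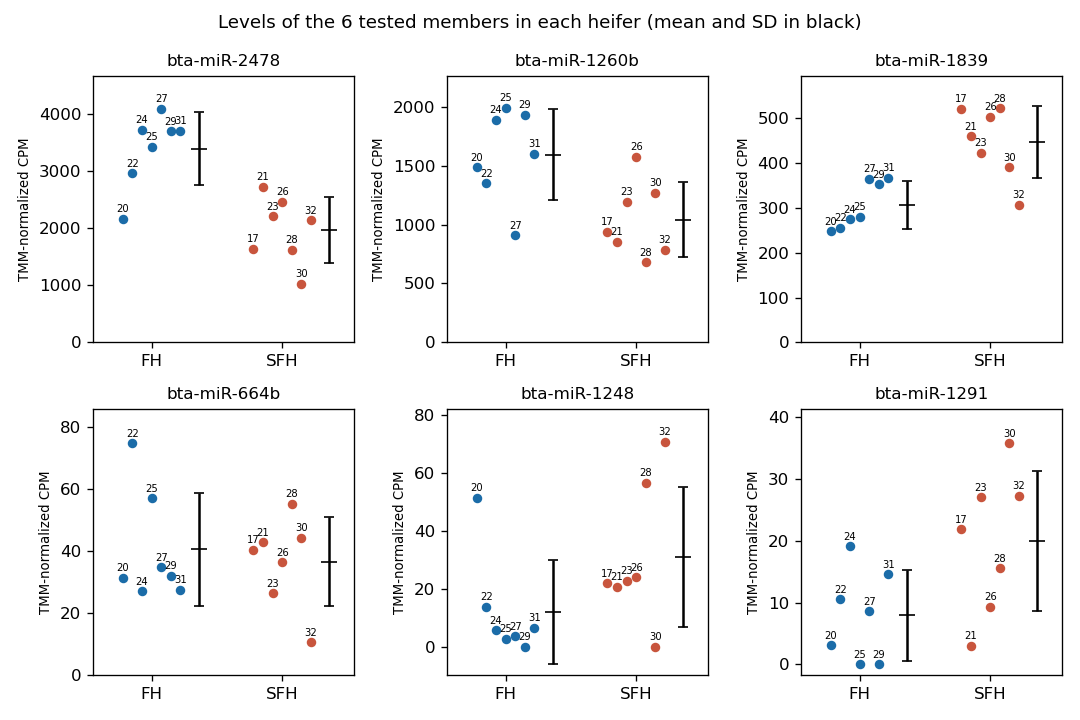
Levels of the 6 tested members in each heifer, in TMM-normalized CPM on linear axes that differ between panels. Points are heifers with their numbers, blue for FH and red for SFH, and black bars give the mean ± SD of each group of 7. For bta-miR-2478 the 7 SFH heifers lie between 1027 and 2724 CPM and all FH heifers but heifer 20 lie above them, while for bta-miR-1839 all SFH heifers but heifer 32 lie above the 7 FH heifers.

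The most abundant member, bta-miR-2478, is a tRNA-like bovine miRNA. Its level in FH was 2157 CPM at the lowest (heifer 20), 3688 CPM at the median and 4082 CPM at the highest (heifer 27). In SFH it was 1027 CPM at the lowest (heifer 30), 2135 CPM at the median and 2724 CPM at the highest (heifer 21). The groups overlapped only through FH heifer 20, since the 6 others lay higher than any SFH heifer, and the SFH heifers, 7 of 7, were below the FH median. The group means were 3389 ± 643 CPM for FH and 1971 ± 578 CPM for SFH (SD, n = 7 each), so the difference exceeded the SD within either group. The level was 1.72-fold higher in FH, with a log2 fold change of -0.78 (SE 0.20, 95% interval -1.18 to -0.38) in SFH relative to FH, an edgeR *p*-value of 0.000944 that ranked 2 among 341, and an adjusted *p*-value of 0.161. DESeq2 gave an adjusted *p*-value of 0.0274 for the same counts, the lowest of 26 alternative fits, of which the highest was 0.480, and the exact permutation *p*-value was 0.00291. The raw counts behind these levels ran from 3362 to 21484.

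The other tRNA-like member, bta-miR-1260b, has been described as resembling the 3′ end of a leucine tRNA. In FH it ranged from 910 CPM (heifer 27) through a median of 1601 CPM to 1991 CPM (heifer 25), and in SFH from 679 CPM (heifer 28) through 938 CPM to 1574 CPM (heifer 26). The overlap was wider than for bta-miR-2478. Here 4 FH heifers lay above the whole SFH group, 3 SFH heifers were below every FH heifer, and FH heifer 27, the highest of all for bta-miR-2478, was the lowest of its group. The means were 1595 ± 388 CPM for FH and 1043 ± 317 CPM for SFH (SD, n = 7 each). In SFH relative to FH the log2 fold change was -0.61 (SE 0.22, 95% interval -1.04 to -0.19), with an edgeR *p*-value of 0.0101, an adjusted *p*-value of 0.415 and an exact permutation *p*-value of 0.0192.

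Although both tRNA-like members were lower in SFH, the correlation of their levels within the groups was weak with all heifers kept. The ratio of bta-miR-2478 to bta-miR-1260b counts was 2.29 ± 1.01 for FH and 2.03 ± 0.794 for SFH (SD, n = 7 each), with 0.807 in SFH heifer 30 as its lowest value and 4.48 in FH heifer 27 as its highest. Over 14 heifers Pearson's r of their log2 levels was 0.45 (permutation *p*-value 0.11, adjusted over 15 pairs of members 0.329) and Spearman's rho was 0.52 (permutation *p*-value 0.0586, adjusted 0.234). Pearson's r was 0.47 without SFH heifers 28 and 30, the animals farthest from the median of bta-miR-2478. With each heifer left out in turn it was 0.35 to 0.60, the higher values being 0.59 without FH heifer 27 (permutation *p*-value 0.0315) and 0.60 without SFH heifer 30 (permutation *p*-value 0.0333), both not adjusted. Within the groups it was -0.0524 in FH and -0.0335 in SFH, and with group means removed -0.0401. These values may depend on FH heifer 27 and SFH heifer 30, which had the extreme ratios. Leaving out a heifer within a group was not tested.

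The sno/scaRNA-like members are led by bta-miR-1839, described elsewhere as a product of an H/ACA scaRNA. It was the only one of them called, and it moved opposite to the tRNA-like members. Its level in FH was 248 CPM at the lowest (heifer 20), 281 CPM at the median and 367 CPM at the highest (heifer 31). In SFH it was 307 CPM at the lowest (heifer 32), 460 CPM at the median and 523 CPM at the highest (heifer 28). All SFH heifers but heifer 32 were above every FH heifer, and all 7 were above the FH median. The FH heifers themselves fell at separate levels, with heifers 20, 22, 24 and 25 between 248 and 281 CPM and heifers 27, 29 and 31 between 353 and 367 CPM. The means were 306 ± 53.2 CPM for FH and 447 ± 79.6 CPM for SFH (SD, n = 7 each). In SFH relative to FH the log2 fold change was 0.55 (SE 0.20, 95% interval 0.15 to 0.94), with an edgeR *p*-value of 0.0141, an adjusted *p*-value of 0.480 and an exact permutation *p*-value of 0.00466. With every precursor entry of the count table kept, the log2 fold change of bta-miR-1839 was 0.47 (edgeR *p*-value 0.0464), below the fold change threshold.

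Variation between heifers was small for bta-miR-1839. The SD of its log2 level within groups was 0.26, and 94.7% of the 341 miRNAs had a larger one. Of the 50 miRNAs nearest to it in mean level, 49 had a larger SD, with a median of 0.49. For bta-miR-2478 the SD was 0.40 and 25 of its 50 neighbours in level had a larger one, and for bta-miR-1260b it was 0.41 and 26 of 50. Among the rarer members it was 0.67 and 44 of 50 for bta-miR-664b, 2.22 and 10 of 50 for bta-miR-1248, and 1.79 and 27 of 50 for bta-miR-1291. The coefficient of variation was 17.4% in FH and 17.8% in SFH for bta-miR-1839, against 19.0% and 29.3% for bta-miR-2478 and 24.3% and 30.4% for bta-miR-1260b.

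H/ACA snoRNAs of the SNORA36 family are the described source of bta-miR-664a and bta-miR-664b. The former had 31 counts in FH heifer 31 and 0 in the other 13 libraries, so it was not tested. The latter was counted in all heifers, from 21 to 261 reads. In FH bta-miR-664b ranged from 27.0 CPM (heifer 24) through a median of 32.0 CPM to 74.7 CPM (heifer 22), and in SFH from 10.6 CPM (heifer 32) through 40.3 CPM to 55.1 CPM (heifer 28). The groups overlapped between 27.0 and 55.1 CPM, with 2 FH heifers above every SFH heifer and 2 SFH heifers below every FH heifer. The means were 40.6 ± 18.2 CPM for FH and 36.5 ± 14.3 CPM for SFH (SD, n = 7 each). The log2 fold change of bta-miR-664b was -0.15 (SE 0.47), with an edgeR *p*-value of 0.751, an adjusted *p*-value of 0.977 and an exact permutation *p*-value of 0.637. Its 95% interval, -1.07 to 0.77, held changes as large as those of the members called, and without FH heifer 22 the log2 fold change was 0.0648.

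The described source of bta-miR-1248 is SNORA81, an H/ACA snoRNA. The count table holds 2 precursor entries for it, with identical counts in every heifer. In FH it ranged from 0 CPM (heifer 29) through a median of 5.62 CPM to 51.5 CPM (heifer 20), and in SFH from 0 CPM (heifer 30) through 22.7 CPM to 70.8 CPM (heifer 32). FH heifer 20 stood apart from the rest of its group, where the next highest was heifer 22 at 13.7 CPM, and all SFH heifers but heifer 30 were between 20.6 and 70.8 CPM. The means were 11.9 ± 18.0 CPM for FH and 31.0 ± 24.2 CPM for SFH (SD, n = 7 each), a difference smaller than the SD of SFH. In SFH relative to FH the log2 fold change was 1.38 (SE 1.04, 95% interval -0.65 to 3.41), with an edgeR *p*-value of 0.197, an adjusted *p*-value of 0.947 and an exact permutation *p*-value of 0.203. Without FH heifer 20 the log2 fold change of bta-miR-1248 was 2.55 (edgeR *p*-value 0.0277, adjusted 0.702, with 0.486 to 0.999 over the alternative fits).

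Both libraries with 0 counts of bta-miR-1248 were deep, with totals of 4506020 in FH heifer 29 and 3958469 in SFH heifer 30. Over 14 heifers the log2 level of bta-miR-1248 and the log2 total count had a Pearson's r of -0.63 (permutation *p*-value 0.0143, adjusted over 6 members 0.0860) and a Spearman's rho of -0.55 (permutation *p*-value 0.0450, adjusted 0.270). The value of r was -0.63 without FH heifers 25 and 27, the farthest from the median total, and it was -0.63 within FH and -0.68 within SFH. For bta-miR-1291, with 0 counts in the deep libraries of FH heifers 25 and 29, r was -0.46 (permutation *p*-value 0.0992, adjusted over 6 members 0.298). This r was -0.36 without FH heifers 25 and 27, -0.56 within FH and 0.0816 within SFH. For the 3 members called, r with the log2 total was between 0.15 and 0.19 over 14 heifers, but it differed by group. It was 0.51 in FH and -0.46 in SFH for bta-miR-2478, -0.18 and 0.34 for bta-miR-1260b, and 0.72 and 0.16 for bta-miR-1839. Without FH heifers 25 and 27 it was -0.12, 0.18 and 0.37 in the same order. With the log2 total as a covariate 3 members were called, against 15 of 341 miRNAs. In that fit the log2 fold change of bta-miR-1248 was 1.25 (edgeR *p*-value 0.221, adjusted 0.955).

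The lowest of the tested members was bta-miR-1291, whose described source is the H/ACA snoRNA SNORA34. In FH it ranged from 0 CPM (heifers 25 and 29) through a median of 8.55 CPM to 19.1 CPM (heifer 24), and in SFH from 3.0 CPM (heifer 21) through 21.9 CPM to 35.8 CPM (heifer 30). It was above every FH heifer in 4 SFH heifers, 17, 23, 30 and 32. The means were 7.97 ± 7.37 CPM for FH and 20.0 ± 11.4 CPM for SFH (SD, n = 7 each). The log2 fold change of bta-miR-1291 was 1.33 (SE 1.02, 95% interval -0.66 to 3.32), with an edgeR *p*-value of 0.205, an adjusted *p*-value of 0.947 and an exact permutation *p*-value of 0.0641. With limma-voom it was 2.73 (*p*-value 0.0288, adjusted 0.491, with 0.491 to 0.999 over the alternative fits), past the thresholds for a call. The SE of bta-miR-1291 was larger than the log2 fold changes of the members called.

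Because the called members moved in opposite directions, their ratio within a library differed more than either level, and it does not depend on how libraries are scaled. The ratio of bta-miR-2478 to bta-miR-1839 counts was 8.71 at the lowest (heifer 20), 11.2 at the median and 13.5 at the highest (heifer 24) in FH. In SFH it was 2.63 at the lowest (heifer 30), 4.87 at the median and 6.96 at the highest (heifer 32). The groups did not overlap. Of the 15 pairs of tested members, 1 had a ratio that did not overlap between the groups, against 38 of 57970 pairs of tested miRNAs (0.0656%), while the TMM-normalized level of a miRNA by itself did not overlap for 0 of 6 members and 0 of 341 miRNAs (0.0%). This ratio was chosen after the levels of both members were seen and is drawn from the same values. The share over all pairs is therefore a description and no test of it. The mean ratio was 11.1 ± 1.56 for FH and 4.55 ± 1.63 for SFH (SD, n = 7 each), 2.44-fold higher in FH. FH heifer 20, which had the lowest bta-miR-2478 level of its group, also had its lowest bta-miR-1839 level, and SFH heifer 32, with the lowest bta-miR-1839 level of SFH, was at the SFH median for bta-miR-2478.

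**Figure D2:**
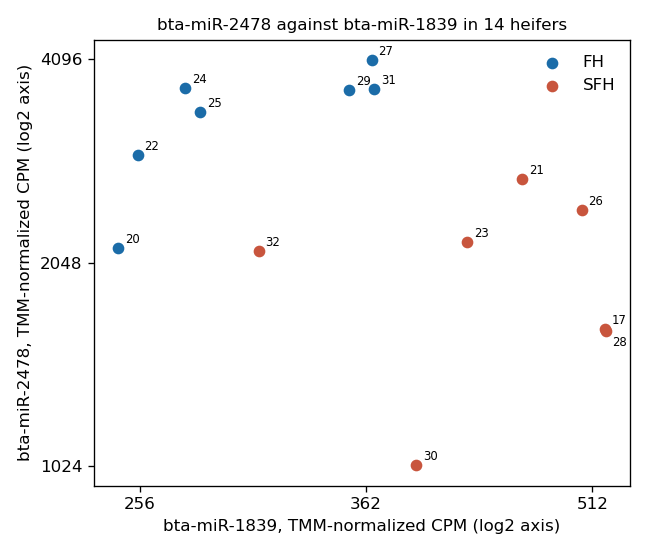
Level of bta-miR-2478 against that of bta-miR-1839 in each of the 14 heifers, in TMM-normalized CPM on log2 axes, with blue points for FH and red points for SFH and the heifer number beside each point. The FH heifers lie toward the upper left, with count ratios of 8.71 to 13.5, and the SFH heifers toward the lower right, with ratios of 2.63 to 6.96.

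Other miRNAs also formed such pairs with bta-miR-2478 and bta-miR-1839. The ratio of bta-miR-2478 did not overlap between the groups with 5 of 340 partners, bta-miR-1839, bta-miR-186, bta-miR-22-3p, bta-miR-24-3p and bta-miR-660. That of bta-miR-1839 did not overlap with 6 of 340, bta-let-7f, bta-let-7g, bta-miR-2478, bta-miR-30c, bta-miR-874 and bta-miR-92b. Over all pairs of tested miRNAs the share was 38 of 57970 (0.0656%). These partners were named after their values were seen, and bta-miR-92b had the most such partners of any miRNA, 12. Outside the members, bta-miR-574 had 6 and bta-miR-874 had 4. The other tested members, bta-miR-1260b among them, had 0 such partners. The ratio of bta-miR-1260b to bta-miR-1839 averaged 5.38 ± 1.58 for FH and 2.39 ± 0.746 for SFH (SD, n = 7 each), and it overlapped, since FH heifer 27 had 2.49 and the highest SFH heifer 3.25.

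Summed by origin, the members showed the same opposition. The summed level of the tRNA-like members was 4984 ± 746 CPM for FH and 3014 ± 673 CPM for SFH (SD, n = 7 each), from 3643 to 5624 CPM in FH and from 2299 to 4029 CPM in SFH, where the groups overlapped. The summed level of the tested sno/scaRNA-like members was 367 ± 37.2 CPM for FH and 534 ± 81.1 CPM for SFH (SD, n = 7 each), where the highest FH heifer (414.9 CPM, heifer 31) was just below the lowest SFH heifer (415.8 CPM, heifer 32). The ratio of the sums was 13.7 ± 2.29 in FH (10.9 to 17.2) and 5.76 ± 1.49 in SFH (3.54 to 7.03), a difference of -1.28 on the log2 scale. Most of the sno/scaRNA-like sum was bta-miR-1839, so this ratio largely repeats that of the called members, and it was not tested.

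Across heifers, the pooled relation of bta-miR-2478 and bta-miR-1839 differed from that within groups. Over 14 heifers Pearson's r was -0.41 (permutation *p*-value 0.150, adjusted over 15 pairs 0.375) and Spearman's rho was -0.43 (permutation *p*-value 0.126, adjusted 0.271), with an r of -0.35 without SFH heifers 28 and 30. Within FH r was 0.75, within SFH it was 0.0585, and with group means removed it was 0.31. The relation within FH was thus positive, against a negative pooled one, and the difference between these values was not tested.

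The 15 pairs of tested members were also compared. Over all heifers the absolute r was above 0.6 for 0 of 15 pairs, against 2869 of 57970 pairs of tested miRNAs (4.95%), and a count of 0 among 15 is near that share. It was above 0.6 for 3 pairs without SFH heifer 30 and 1 pair without heifer 20, 26, 27 or 32. The median r was -0.16 over member pairs and 0.0103 over all pairs, with 6 positive and 9 negative values among the members. Over all 14 heifers the strongest relation was negative and joined bta-miR-1260b and bta-miR-1248, with a Pearson's r of -0.53 and a Spearman's rho of -0.57 (permutation *p*-value 0.0359, adjusted over 15 pairs 0.234). The permutation *p*-value of r was 0.0499 in a draw of 100000 permutations and 0.0502 in another, and 0.305 after adjustment. Pearson's r was -0.33 without SFH heifers 28 and 32, between -0.62 and -0.43 with each heifer left out in turn, -0.30 within FH and -0.51 within SFH. For bta-miR-2478 and bta-miR-1248 r was -0.16 (permutation *p*-value 0.595, adjusted 0.785) and rho was -0.50 (permutation *p*-value 0.0715, adjusted 0.234). Here the value depended on each of the heifers with 0 counts of bta-miR-1248. Without SFH heifer 30, which also had the lowest bta-miR-2478 level, r was -0.79, and without FH heifer 29 it was -0.0067. These were the ends of the range with each heifer left out in turn. The value of r was -0.76 without SFH heifers 28 and 30, -0.75 within FH and 0.71 within SFH. For bta-miR-2478 and bta-miR-1291 r was -0.51 (permutation *p*-value 0.0641, adjusted 0.305) and rho was -0.54 (permutation *p*-value 0.0504, adjusted 0.234), with an r of -0.40 without SFH heifers 28 and 30, -0.59 to -0.43 with each heifer left out in turn, 0.0697 within FH and -0.67 within SFH. For bta-miR-1260b and bta-miR-1839 r was -0.50 (permutation *p*-value 0.0693, adjusted 0.305) and rho was -0.49 (permutation *p*-value 0.0780, adjusted 0.234), with an r of -0.54 without SFH heifers 28 and 32, -0.63 to -0.39 with each heifer left out in turn, -0.23 within FH and 0.0773 within SFH.

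The miRNAs most like each member were taken as the 3 with the highest Pearson's r of log2 levels over 14 heifers, as a description with no test. Nearest to bta-miR-1260b was bta-miR-92b (r 0.86, rho 0.83, 0.68 within FH and 0.82 within SFH), followed by bta-let-7b (0.73, 0.62 and 0.78) and bta-let-7e (0.72, 0.64 and 0.74). Like bta-miR-1260b, bta-miR-92b and bta-let-7b were called lower in SFH, with log2 fold changes of -0.96 (SE 0.23, edgeR adjusted *p*-value 0.142) and -0.71 (SE 0.25, edgeR adjusted *p*-value 0.415). Nearest to bta-miR-2478 were bta-miR-2285bt (r 0.75, rho 0.67, 0.89 within FH and 0.83 within SFH), bta-miR-6529a (0.69, rho 0.51, 0.32 and 0.88) and bta-miR-301a (0.68, rho 0.65, 0.24 and 0.61), of which 0 were called. Nearest to bta-miR-1839 were bta-miR-29d-3p (r 0.74, rho 0.63, 0.57 within FH and 0.79 within SFH), bta-miR-1388-5p (0.70, rho 0.71, 0.93 and 0.33) and bta-miR-2285aa (0.68, rho 0.71, 0.87 and 0.42), and of these too 0 were called. Mean levels over the heifers were low for bta-miR-2285bt (15.9 CPM), bta-miR-301a (4.92 CPM) and bta-miR-29d-3p (6.44 CPM).

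Among the rarer members, bta-miR-1248 had bta-miR-1434-3p nearest to it (r 0.86, rho 0.87, 0.79 within FH and 0.91 within SFH), a miRNA called higher in SFH with a log2 fold change of 2.94 (SE 1.30, edgeR adjusted *p*-value 0.712). Next came bta-miR-10b (0.83, 0.88 and 0.86) and bta-miR-450a (0.79, 0.84 and 0.92), whose rho was lower, at 0.61 and 0.56. Mean levels of these neighbours were low, at 11.6 CPM for bta-miR-1434-3p, 26.2 CPM for bta-miR-10b and 10.7 CPM for bta-miR-450a. Nearest to bta-miR-1291 were bta-miR-199a-3p and bta-miR-199c (r 0.77 and rho 0.50 for both, with identical values in all heifers, 0.88 within FH and 0.33 within SFH) and bta-miR-10172-5p (0.74, 0.69 and 0.33). Nearest to bta-miR-664b were bta-miR-30c (r 0.65, 0.86 within FH and 0.59 within SFH), bta-miR-628 (0.58, rho 0.34, 0.12 and 0.96) and bta-miR-224 (0.56, 0.66 and 0.47).

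Other miRNAs of non-canonical origin give a comparison. They include the Drosha-independent bta-miR-320a, bta-miR-320b, bta-miR-484, the mirtron-type bta-miR-877, bta-miR-1249, and bta-miR-1246. Of these 6, all but bta-miR-320b were tested (5), and 0 were called by edgeR in either direction, with a median log2 fold change of -0.41. A count of 0 among 5 is near the share over all tested miRNAs (3.81%). Their summed level, in CPM by library totals without TMM, was 10237 ± 6053 CPM for FH and 8292 ± 2458 CPM for SFH (SD, n = 7 each), most of it bta-miR-320a. FH heifer 25 had 23507 CPM and the other FH heifers 4923 to 9754 CPM, so that the FH mean without it was 8026 CPM, below that of SFH.

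Marker miRNAs checked the cell type, with levels summed as CPM by library totals without TMM. The leukocyte list (bta-miR-142-5p, bta-miR-142-3p, bta-miR-223, bta-miR-150, bta-miR-155, bta-miR-342, bta-miR-146a and bta-miR-146b) was tested in full, 8 of 8, with 0 called and a summed level of 115274 ± 22360 CPM for FH and 121065 ± 31024 CPM for SFH (SD, n = 7 each), from 73822 to 162950 CPM over the heifers, led by bta-miR-150. The erythroid list had 2 of 3 miRNAs tested and 0 called, and bta-miR-144 was at 0 counts in every library. Its summed level, led by bta-miR-451, was 2492 ± 846 CPM for FH and 3480 ± 2723 CPM for SFH (SD, n = 7 each). SFH heifer 30, with the lowest bta-miR-2478 level and the lowest ratio of bta-miR-2478 to bta-miR-1839, had the highest erythroid sum, 9234 CPM, against at most 4191 CPM in the others. Without this heifer the log2 fold change was -0.67 for bta-miR-2478 (edgeR adjusted *p*-value 0.132), -0.67 for bta-miR-1260b (0.331) and 0.58 for bta-miR-1839 (0.387). In that fit 3 members were called, against 13 of 341 miRNAs. Without FH heifer 29 and SFH heifer 30 together, an alternative chosen after seeing the data, the log2 fold change was -0.66 for bta-miR-2478, -0.62 for bta-miR-1260b and 0.60 for bta-miR-1839. Markers of other sources were low, with mean summed levels of 43.8 (SD 17.0) and 32.0 (SD 13.8) CPM in FH and SFH for platelet and endothelial miRNAs, 2 of 2 tested, and 16.7 (SD 30.6) and 46.3 (SD 101.0) CPM for muscle miRNAs, 1 of 3 tested. The muscle sums rest on SFH heifer 21 at 274.8 CPM and FH heifer 20 at 85.6 CPM, since each other heifer had 22.0 CPM or less. The liver and epithelial list, 1 of 7 tested, had 187 (SD 35.6) and 165 (SD 56.3) CPM. These lists were led by bta-miR-126-3p, bta-miR-1 and bta-miR-200c, and 0 of their tested miRNAs were called.

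The precursor genes were placed among their neighbours with the RefSeq annotation of ARS-UCD2.0, a later assembly than that of the count table, so no coordinates are given. The precursors of the sno/scaRNA-like members lie within protein-coding genes, as snoRNAs commonly do. The gene of bta-miR-664a lies within *DKC1*, which encodes dyskerin, the pseudouridine synthase of H/ACA particles, and that of bta-miR-664b within *RAB3GAP2*, which encodes a subunit of a Rab3 regulator. The first bta-miR-1248 gene lies within *EIF4A2*, a translation initiation helicase gene that holds 3 annotated snoRNA genes, and the other within *MYO5A*, a myosin gene. That of bta-miR-1291 lies within *KANSL2*, a gene for a chromatin regulator with 2 annotated snoRNA genes inside, and that of bta-miR-1839 within *MROH1*. Among the tRNA-like members, the gene of bta-miR-1260b lies within *MAML2*, a Notch coactivator gene, and that of bta-miR-2478 overlaps no other gene, between *NKAIN2* and *TRDN*. In this annotation 0 of these precursors overlapped an annotated tRNA or snoRNA gene.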

How the data were processed

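The authors trimmed adapters and end bases with cutadapt, ran miRDeep2 against the ARS-UCD1.2 genome and miRBase, and deposited raw counts per mature miRNA and precursor. They also deposited CPM of the miRNAs that passed their filter, which equal each count's share of the heifer's total over these and were used only as a check. For a name with several precursors the entry with the highest total was kept. The quasi-likelihood F-test of edgeR 4.0.16 (R 4.3.3) compared the groups on TMM-scaled counts without covariates, with Benjamini-Hochberg adjustment over all miRNAs tested. Alternatives used DESeq2 1.42.0 and limma 3.58.1, other scaling factors and filters, the log2 total as covariate, and each heifer left out in turn. The fits were tested on simulated data. Exact two-sided permutation tests and correlations (two-sided, 100000 permutations) used log2(TMM-normalized CPM + 0.5). Other steps ran in Python 3.11.15 with scipy 1.17.1, pandas 2.3.3 and numpy 2.4.6. The miRNAs named are the 7 members, the 3 most like each, and the marker and non-canonical lists, apart from those given as chosen later. The members and lists were chosen with earlier results of these data known. The deposited tables held no comparison columns. Mature sequences were not analysed here.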

Additional observations from a re-analysis of the deposited data

Results flagged for a closer look

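In FH heifer 20, bta-miR-1248 was at 51.5 TMM-normalized CPM, far above the other heifers of its group, of which the next, heifer 22, was at 13.7 CPM. The gap took 0.735 of the range of FH, above Dixon's 95% critical value for 7 samples. For normally distributed values chance exceeds that critical value in about 1 of 20 groups. Here the gap was taken on linear CPM, where the FH mean was 11.9 CPM and the SD 18.0 CPM, so that rate may not hold. The gap on the log2 scale was not examined. In all, 12 groups (6 members in FH and SFH) were examined at both ends.

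bta-miR-664a, which was not tested because of its low counts, had 31 counts in FH heifer 31 and 0 in each of the other 13 heifers. This signal lies above the 3 counts that a count of 0 allows, and it rests on 1 library.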

How the results depend on the processing

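Of 154 alternative values of the member fold changes, 153 kept their direction and 150 also their side of the thresholds. bta-miR-1839 had a log2 fold change of 0.47, below the fold change threshold, with every precursor entry kept. Leaving out each heifer in turn gave -0.28 to 0.0648 for bta-miR-664b (0.0648, the reverse direction, without FH heifer 22) and 1.03 to 2.55 for bta-miR-1248, and limma-voom gave 2.73 for bta-miR-1291. The number of members called was 3 to 4 with each heifer left out, 2 with every precursor entry kept, 4 with limma-voom (bta-miR-1291 added) and 4 without the CPM filter (bta-miR-664a added, from the 31 counts of 1 library). Over all tested miRNAs, 23 were called with limma-voom, 126 without the CPM filter (614 tested, and 109 of those called had not passed it), 20 with every precursor entry, and 11 to 22 with each heifer left out (22 without FH heifer 24, 20 without SFH heifer 26). After adjustment, DESeq2 called 2 and edgeR with every precursor entry called 1, bta-miR-92b. With each heifer left out, the edgeR adjusted *p*-value was 0.121 to 0.480 for bta-miR-2478, 0.202 to 0.839 for bta-miR-1260b and 0.387 to 0.890 for bta-miR-1839. With group means removed, r was -0.0401 for bta-miR-2478 with bta-miR-1260b and 0.31 for bta-miR-2478 with bta-miR-1839. Between 0 and 3 member pairs had an absolute r above 0.6 with each heifer left out (3 without SFH heifer 30). The log2 difference of the ratio of sums was -1.33 to -1.17, and that of bta-miR-2478 to bta-miR-1839 -1.48 to -1.24. The cause of these changes was not tested. No paired analysis was possible because no heifer number is shared between the groups.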
